A study of Mus musculus with 8 samples.

Results

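The 10 genes described here encode the core of MHC class I antigen presentation in the mouse, namely the heavy chains *H2-K1* and *H2-D1*, the light chain *B2m*, the peptide transporter genes *Tap1* and *Tap2*, the loading protein *Tapbp*, the inducible proteasome subunits *Psmb8*, *Psmb9* and *Psmb10*, and the transactivator *Nlrc5*. They were chosen by name, with earlier results of these data known, from the 54532 Ensembl gene identifiers of the deposited count files. All 10 were among the 22544 genes that passed the filter on low counts. The study cultured wild-type (WT) pericytes, the mural cells that wrap capillaries, from mouse brain. There were 4 primary cultures with vehicle (replicates 1 to 4, dose 0) and 4 with TGF-β1, a secreted cytokine, at 5 μg/mL (replicates 5 to 8), all taken at 48 h for bulk sequencing of total RNA. The series asks what TGF-β1 of neighbouring cells does to brain pericytes. The labels give no strain, age or sex of the donor mice, the study's methods name male mice without tying them to these cultures, and the cells had been expanded over several passages in medium with serum. Each culture gave 45255235 to 47651397 counts. Levels are given as CPM, the count of a gene relative to the total count of its library after scaling with TMM factors, and fold changes are log2 values of TGF-β1 against vehicle from a model fitted to all genes tested.

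Class I molecules show fragments of the cell's own proteins to CD8 T cells. The proteasome cuts proteins into peptides, and under interferon its 3 catalytic subunits can be replaced by the inducible β1i (*Psmb9*), β2i (*Psmb10*) and β5i (*Psmb8*), which favour peptides that fit class I grooves. TAP, a pair of *Tap1* and *Tap2* proteins, pumps the peptides into the endoplasmic reticulum, where tapasin (*Tapbp*) holds an empty class I molecule next to TAP until a fitting peptide binds. The heavy chain then leaves for the surface together with β2-microglobulin (*B2m*). NLRC5 is drawn to class I promoters by factors bound to conserved boxes there and switches on much of the set. Most cell types carry class I, and interferons raise it.

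Positions follow GENCODE M21, which uses GRCm38 (mm10), and 7 of the 10 genes lie on chromosome 17, in or next to the MHC. *Psmb9* (ENSMUSG00000096727, chr17:34181987-34187764, minus strand), *Tap1* (ENSMUSG00000037321, chr17:34187553-34197225, plus strand), *Psmb8* (ENSMUSG00000024338, chr17:34197721-34201454, plus strand) and *Tap2* (ENSMUSG00000024339, chr17:34203527-34216321, plus strand) follow one another in the MHC. On the same chromosome lie *Tapbp* (ENSMUSG00000024308, chr17:33915899-33929292, plus strand), *H2-K1* (ENSMUSG00000061232, chr17:33996017-34000347, minus strand) and *H2-D1* (ENSMUSG00000073411, chr17:35262730-35267499, plus strand). *B2m* (ENSMUSG00000060802) is at chr2:122147686-122153083 on the plus strand. *Psmb10* (ENSMUSG00000031897, chr8:105935735-105938444, minus strand) and *Nlrc5* (ENSMUSG00000074151, chr8:94434356-94527272, plus strand) are both on chromosome 8.

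The promoters of the heavy and light chain genes are shown because they hold short motifs through which activators are known to reach class I genes. Only the motifs named here and below were searched. RefSeq promoter windows on GRCm38.p6 were matched for 8 of the 10 genes, with no entry for *Nlrc5* and *Tap2*. Capitals mark matches on either strand to the NF-kappaB consensus, the IRF core AANNGAAA, the CRE half-site TGACG and the CCAAT box, and overlapping NF-kappaB matches are merged. The *H2-K1* stretch is chr17:34000349-34000468 on the minus strand, 121 to 2 bases before the RefSeq start, and the *B2m* stretch is chr2:122147540-122147648 on the plus strand, 147 to 39 bases before it. For *H2-D1*, whose longer GENCODE transcript covers this stretch, only the pieces around the motifs are printed, chr17:35262922-35262951 and chr17:35262983-35263007 on the plus strand.
H2-K1: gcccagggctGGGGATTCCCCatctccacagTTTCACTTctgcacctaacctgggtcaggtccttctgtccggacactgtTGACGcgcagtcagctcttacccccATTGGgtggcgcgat
B2m: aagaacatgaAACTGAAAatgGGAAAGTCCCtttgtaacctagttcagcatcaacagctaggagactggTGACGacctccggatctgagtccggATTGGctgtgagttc
H2-D1, NF-kappaB and IRF: tGGGGATTCCCCatctcctcagTTTCACTT
H2-D1, CRE half-site: gggacactgaTGACGcgctggcagg

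All 3 windows held the NF-kappaB, IRF, CRE and CCAAT letters, in the order NF-kappaB, IRF, CRE, CCAAT in *H2-K1* and *H2-D1* and with the IRF core first in *B2m*. The *H2-K1* stretch and the *H2-D1* stretch of the same length were identical at 108 of 120 bases (90.0%) without gaps. Of 32851 windows of 250 bases before a RefSeq start, 3.9% held the NF-kappaB consensus, 21.3% the IRF core, 17.8% the CRE half-site and 33.8% the CCAAT box.

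*Tap1* and *Psmb9* are read in opposite directions from starts at 34187556 and 34187330 of chromosome 17 in RefSeq, 225 bases apart, and share the region between them. It held a CCAAT box at the *Psmb9* end and a CRE half-site nearer to *Tap1*, printed here from the plus strand at chr17:34187324-34187348 and chr17:34187460-34187484, and longer GENCODE transcripts of *Psmb9* run across it. No NF-kappaB or IRF match was found in the 250 bases before either start.
Tap1 and Psmb9, CCAAT box: gctcggctttCCAATcagcggctgc
Tap1 and Psmb9, CRE half-site: cagagacaggTGACGacagagggtc

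Of the 8 windows, 5 held the CRE half-site (*H2-K1*, *H2-D1*, *B2m*, *Tap1* and *Psmb9*) and 6 the CCAAT box (these and *Tapbp*). The IRF core and the NF-kappaB consensus were each found in 3 (*H2-K1*, *H2-D1* and *B2m*). A gamma-activated site, TTCNNNGAA, was found in 1 of the 8 (*Psmb8*) and in 7.0% of all windows. The letters CAGAC, which SMAD proteins can bind, were found in 4 of the 8 (*H2-K1*, *Tap1*, *Tapbp* and *Psmb9*) and in 42.2% of all windows. These matches describe letters in the windows. Binding was not measured here, and the motifs were chosen with results of these data known.

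The RNA of all 10 class I presentation genes was lower after 48 h of TGF-β1, from genes of the proteasome to those of the surface molecule. The largest fold change was that of *Psmb9*, which was left with 43.0% of its vehicle level, and the smallest that of *B2m*, which kept 83.6%. The other 8 kept between 56.9% (*Psmb8*) and 75.9% (*Tapbp*). Each of the 10 passed edgeR's quasi-likelihood test with Benjamini-Hochberg adjustment over all genes at an adjusted p under 0.05, whereas 20.3% of all genes tested were called lower and 41.3% were called in either direction. In each of the 10, every TGF-β1 culture also lay below every vehicle culture, a separation in this direction seen in 18.8% of the genes tested. The median log2 fold change of the 10 was -0.66 (range -1.22 to -0.26), beside -0.01 for all genes tested. The 10 genes were chosen with earlier results of these data known, so their shared direction is no independent evidence. In bulk RNA, fewer cells that express a gene and less RNA per cell cannot be told apart.

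**Figure D1:**
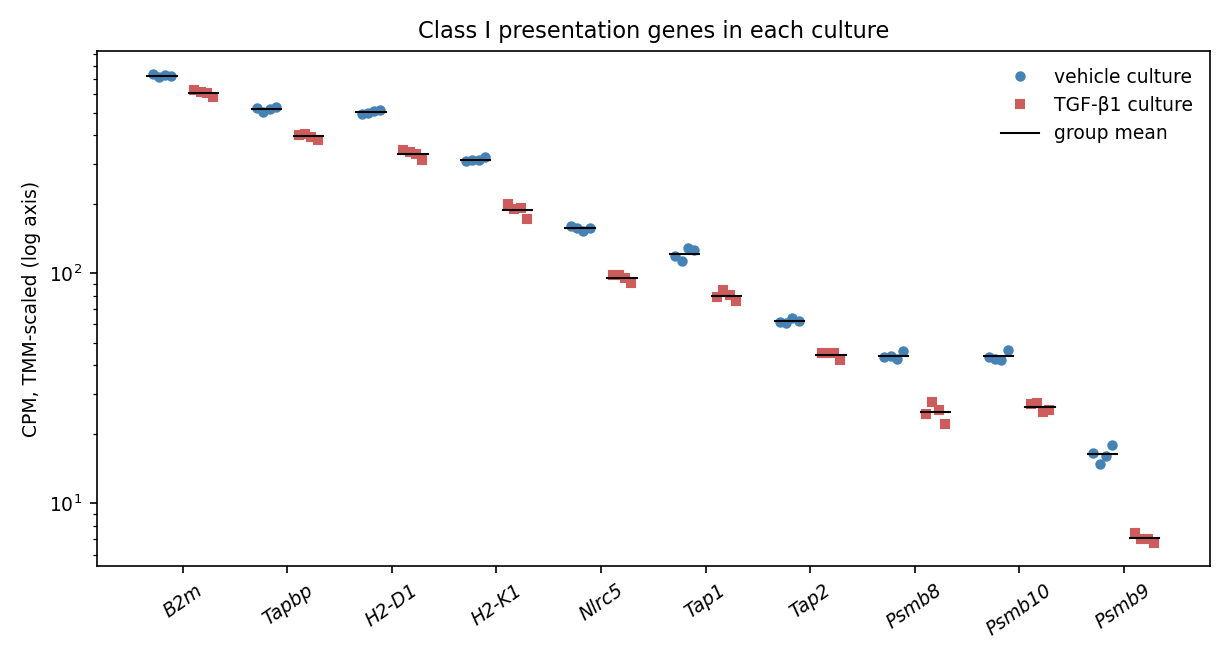
Level of each class I presentation gene in each culture (CPM, TMM-scaled, log axis), with circles for the 4 vehicle cultures, squares for the 4 TGF-β1 cultures and black lines for the group means. In all 10 genes the squares lie below the circles, from *B2m* at 725 against 606 CPM down to *Psmb9* at 16.4 against 7.05 CPM.

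The heavy chain genes carry the peptide groove of the molecule. *H2-K1* was at 307, 312, 310 and 320 CPM in vehicle replicates 1 to 4 and at 200, 190, 193 and 173 CPM in TGF-β1 replicates 5 to 8. The groups were far apart, and the lowest value was that of TGF-β1 replicate 8. *H2-K1* went from 312 ± 5.41 to 189 ± 11.7 CPM (SD, n = 4 each), a log2 fold change of -0.72 with a standard error (SE) of 0.03 and an adjusted p of 4.12e-16 in edgeR's quasi-likelihood test. *H2-D1* was at 491, 496, 507 and 511 CPM with vehicle and at 344, 336, 332 and 311 CPM with TGF-β1. Again the groups did not overlap and replicate 8 was lowest. *H2-D1* fell by 0.60 on the log2 scale (SE 0.03, edgeR adjusted p = 2.66e-23), from 501 ± 9.31 to 331 ± 14.2 CPM (SD, n = 4 each). Heavy chain genes resemble one another, and 9.6% of the 50-base words of *H2-K1* transcripts and 12.8% of those of *H2-D1* also occur in other genes.

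The light chain gene changed least. *B2m*, whose protein every class I heavy chain needs for folding, was at 735, 717, 729 and 719 CPM with vehicle and at 625, 612, 606 and 583 CPM with TGF-β1. The lowest vehicle culture still exceeded the highest TGF-β1 culture. The means were 725 ± 8.26 and 606 ± 17.4 CPM (SD, n = 4 each), with a log2 fold change of -0.26 (SE 0.02, edgeR adjusted p = 2.45e-13), and 21.8% of all genes tested had a fold change as low or lower. None of its 50-base words occur in other genes (0.0%).

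Within each culture, the heavy chains fell relative to *B2m*. The ratio of *H2-K1* to *B2m*, both as counts per kb of exon, went from 0.126 ± 0.00338 to 0.0912 ± 0.00330 (SD, n = 4 each), a log2 difference of -0.47 (SE 0.03), and that of *H2-D1* to *B2m* from 0.231 ± 0.00587 to 0.182 ± 0.00276, a log2 difference of -0.34 (SE 0.02). In both, the groups did not overlap (two-sided exact permutation p = 0.0286, the lowest value possible with 4 against 4 cultures, and 0.0286 adjusted over the 3 ratios of this kind). These ratios, and one of *Psmb9* to *Tap1*, were chosen after the values of the genes were seen. Their p-values are therefore no independent test, and the adjustment does not cover that choice. The ratio of *H2-K1* to *H2-D1* was 0.550, 0.552, 0.537 and 0.550 with vehicle and 0.511, 0.496, 0.511 and 0.488 with TGF-β1. *H2-K1* thus fell slightly more than *H2-D1*, with a log2 difference in the ratio of -0.13 (SE 0.02, exact permutation test, two-sided, p = 0.0286, adjusted p = 0.0357 over 5 ratios).

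TAP carries peptides from the cytosol into the endoplasmic reticulum. *Tap1* was at 119, 113, 129 and 126 CPM with vehicle and at 78.8, 85.1, 80.6 and 75.7 CPM with TGF-β1. The vehicle cultures differed among themselves more than in most of the 10 genes, but the gap to the TGF-β1 cultures was wider. The means of *Tap1* were 122 ± 7.29 and 80.0 ± 3.92 CPM (SD, n = 4 each), a log2 fold change of -0.60 (SE 0.04, edgeR adjusted p = 1.97e-11). *Tap2* was at 61.8, 61.0, 64.2 and 61.9 CPM with vehicle and at 45.3, 45.3, 45.1 and 41.9 CPM with TGF-β1. Replicate 8 stood below the other 3 TGF-β1 cultures, which were nearly equal. *Tap2* fell by 0.49 on the log2 scale (SE 0.03, edgeR adjusted p = 4.64e-16), from 62.2 ± 1.37 to 44.4 ± 1.68 CPM (SD, n = 4 each). Genes on the opposite strand overlap 18.5% of its exons, and whether the counting used strand is not given in the sources used here.

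A difference between the transporter genes was not established. The ratio of *Tap1* to *Tap2* per kb of exon was 1.35 ± 0.0589 with vehicle and 1.24 ± 0.0392 with TGF-β1 (SD, n = 4 each), with overlapping groups and a log2 difference of -0.12 (SE 0.04, exact permutation test, two-sided, p = 0.0571, adjusted p = 0.0571 over 5 ratios). Without vehicle replicate 2, which had the lowest vehicle ratio at 1.27, the difference was -0.14 and the groups no longer overlapped (exact permutation p = 0.0286).

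*Tapbp* encodes tapasin, the bridge between TAP and the empty heavy chain. It was at 523, 505, 519 and 527 CPM with vehicle and at 400, 403, 391 and 381 CPM with TGF-β1. The cultures of each group lay close together and the groups were apart. *Tapbp* went from a mean of 518 to 394 CPM (coefficients of variation 1.79% and 2.54%, n = 4 each), a log2 fold change of -0.40 (SE 0.02, edgeR adjusted p = 4.9e-19). A gene on the opposite strand overlaps 24.9% of its exon length and *Zbtb22*, on the same strand, 4.1%.

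The largest fold changes of the 10 genes were those of the inducible proteasome subunits *Psmb9* and *Psmb8*. That of *Psmb10* (-0.73) was close to those of *H2-K1* and *Nlrc5* (-0.72 each), and these differences were not tested. *Psmb9*, the β1i subunit, was at 16.6, 14.8, 16.1 and 18.0 CPM with vehicle and at 7.42, 7.03, 7.01 and 6.75 CPM with TGF-β1. Even the highest TGF-β1 culture was far below the lowest vehicle culture. *Psmb9* fell by 1.22 on the log2 scale (SE 0.07, edgeR adjusted p = 3.27e-19), from 16.4 ± 1.29 to 7.05 ± 0.278 CPM (SD, n = 4 each), and 1.72% of all genes tested had a fold change as low or lower. It was also the least abundant of the 10, with at least 317 counts in every culture.

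*Psmb8*, the β5i subunit, was at 43.2, 43.8, 42.5 and 45.8 CPM with vehicle and at 24.6, 27.5, 25.4 and 22.2 CPM with TGF-β1. The spread among the TGF-β1 cultures was the widest of the 10 genes relative to the mean (coefficient of variation 8.89%), and the groups still did not overlap. *Psmb8* went from 43.8 ± 1.44 to 24.9 ± 2.22 CPM (SD, n = 4 each), a log2 fold change of -0.81 (SE 0.05, edgeR adjusted p = 6.41e-18), and a gene on the opposite strand overlaps 14.7% of its exons. *Psmb10*, the β2i subunit, was at 43.2, 42.6, 42.2 and 46.7 CPM with vehicle and at 27.0, 27.4, 25.1 and 25.6 CPM with TGF-β1. Its groups were likewise apart. *Psmb10* fell by 0.73 on the log2 scale (SE 0.04, edgeR adjusted p = 5.18e-19), from 43.7 ± 2.07 to 26.3 ± 1.10 CPM (SD, n = 4 each).

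*Psmb9* and *Tap1*, which share the region between their starts, did not fall to the same extent. Their ratio per kb of exon was 0.209, 0.197, 0.187 and 0.213 with vehicle and 0.141, 0.124, 0.130 and 0.133 with TGF-β1. The log2 difference was -0.61 (SE 0.06, exact permutation test, two-sided, p = 0.0286, adjusted p = 0.0286 over the 3 ratios chosen after the values were seen). Because of that choice, this p-value is no independent test of the difference. The genes overlap on opposite strands over 3.9% of the exons of *Tap1* and 5.8% of those of *Psmb9*.

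The constitutive subunits that the inducible ones replace moved the other way. *Psmb5* (β5) rose from 33.9 to 40.1 CPM, *Psmb6* (β1) from 59.2 to 67.0 CPM and *Psmb7* (β2) from 43.0 to 49.5 CPM. Their log2 fold changes were 0.24 (SE 0.04), 0.18 (SE 0.03) and 0.20 (SE 0.04), with edgeR adjusted p of 2.65e-06, 1.17e-05 and 5.14e-06, and 20.9% of all genes tested were called higher. The *Psmb5* count is uncertain, because 54.1% of its 50-base words occur in other genes and *Mir686* overlaps 12.1% of its exons on the same strand.

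The balance of inducible to constitutive subunit RNA was therefore lower with TGF-β1 in each catalytic pair. The subunit proteins were not measured here. The ratio of *Psmb9* to *Psmb6* per kb of exon was 0.150, 0.131, 0.135 and 0.151 with vehicle and 0.0571, 0.0533, 0.0529 and 0.0522 with TGF-β1, a log2 difference of -1.39 (SE 0.06). That of *Psmb8* to *Psmb5* was 0.351, 0.348, 0.332 and 0.343 against 0.171, 0.174, 0.173 and 0.143, a log2 difference of -1.06 (SE 0.07). That of *Psmb10* to *Psmb7* was 1.97, 2.06, 1.91 and 2.23 against 1.08, 1.12, 1.03 and 1.03, a log2 difference of -0.94 (SE 0.06). None of the 3 ratios overlapped between the groups (exact permutation tests, two-sided, each p = 0.0286, adjusted p = 0.0357 over 5 ratios). The size of each ratio depends on the merged exon length of the genes, which cancels in the difference between groups. Per kb *Psmb10* exceeded *Psmb7* in all 8 cultures, but in CPM the genes were at 43.7 and 43.0 with vehicle and *Psmb10* was below *Psmb7* in each TGF-β1 culture (26.3 and 49.5 CPM on average).

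**Figure D2:**
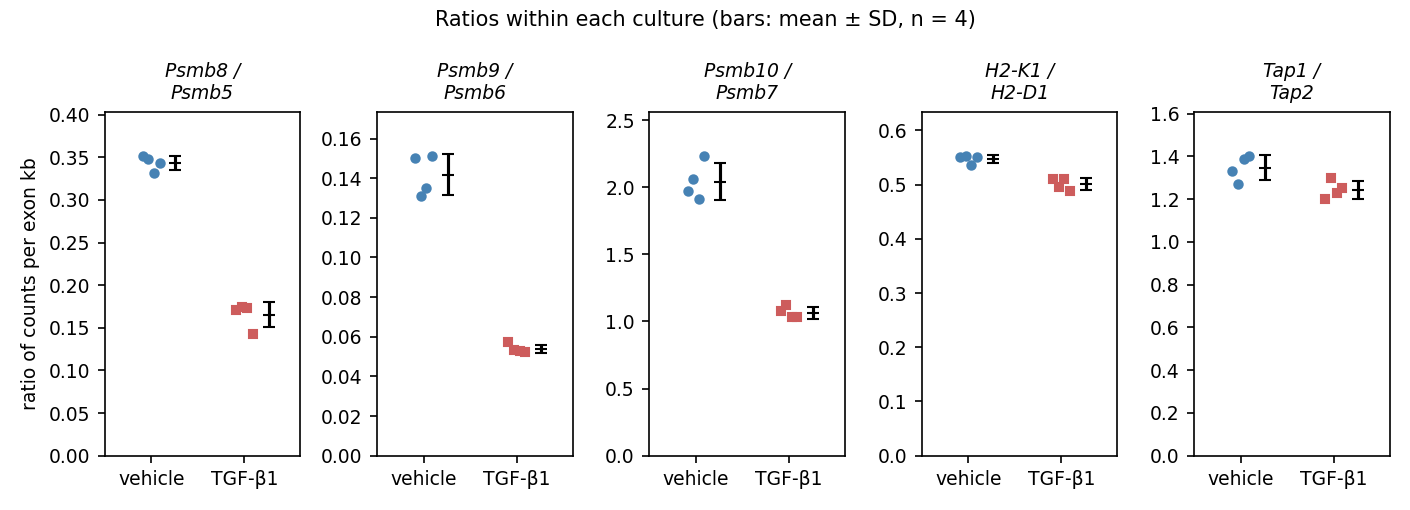
Ratios of counts per kb of exon within each culture, with circles for vehicle, squares for TGF-β1 and bars for the mean ± SD of 4 cultures, each panel on its own axis from 0. The 3 inducible to constitutive ratios fell by 0.94 to 1.39 on the log2 scale, *H2-K1* to *H2-D1* fell by 0.13, and *Tap1* to *Tap2* overlapped between the groups.

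*Nlrc5*, the transactivator of the set, was at 161, 157, 153 and 158 CPM with vehicle and at 98.0, 98.0, 95.7 and 90.6 CPM with TGF-β1. The groups were clearly separated and replicate 8 was again lowest. It went from 157 ± 3.53 to 95.6 ± 3.49 CPM (SD, n = 4 each), a log2 fold change of -0.72 (SE 0.03, edgeR adjusted p = 5e-25). This fold change rounds to the same value as that of *H2-K1*, and 5.81% of all genes tested were as low or lower.

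Divided by the merged length of all annotated exons, the order of the levels among the 10 genes was the same in both groups but for 1 pair. In the vehicle cultures *B2m* led with 843 CPM per kb of exon, followed by *H2-D1* (194), *Tapbp* (143), *H2-K1* (106), *Psmb10* (25.6), *Tap1* (22.2), *Nlrc5* (18.5), *Tap2* (16.5), *Psmb8* (13.0) and *Psmb9* (4.48). No neighbours in this order overlapped over the 4 vehicle cultures. With TGF-β1 the CPM per kb were 705 for *B2m*, 128 for *H2-D1*, 108 for *Tapbp*, 64.4 for *H2-K1*, 15.4 for *Psmb10*, 14.6 for *Tap1*, 11.7 for *Tap2*, 11.3 for *Nlrc5*, 7.37 for *Psmb8* and 1.93 for *Psmb9*. Here *Psmb10* overlapped with *Tap1*, and *Tap2*, now above *Nlrc5*, overlapped with it. Light chain RNA thus exceeded each heavy chain RNA per kb in both groups, while the RNAs of TAP, the inducible subunits and *Nlrc5* were the scarcest.

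Within a group the 10 genes varied little, with coefficients of variation from 1.14% (*B2m*) to 7.84% (*Psmb9*) among vehicle cultures and from 2.54% (*Tapbp*) to 8.89% (*Psmb8*) among TGF-β1 cultures. TGF-β1 replicate 8 was the lowest of its group in 9 of the 10, the exception being *Psmb10*. The summed level of the 10 was 2500, 2463, 2511 and 2533 CPM in the vehicle cultures and 1850, 1831, 1801 and 1710 CPM in the TGF-β1 cultures. Without replicate 8 the median log2 fold change of the 10 was -0.62 and all 10 stayed called.

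Around the core set, the genes that trim peptides or help to load them moved in both directions. Of the 7 on the list, 3 fell (42.9%), 3 rose (42.9%) and 1 (*Uggt1*) was not called, with a median log2 fold change of -0.04. The shares over all genes tested were 20.3% lower and 20.9% higher. This list and those that follow were written with results of these data known and are no independent evidence of their direction. *Erap1*, the aminopeptidase that trims peptides in the endoplasmic reticulum, fell from 109 ± 3.01 to 80.9 ± 2.42 CPM (log2 fold change -0.43, SE 0.03, edgeR adjusted p = 7.08e-17). *Tapbpl*, the tapasin-related peptide editor, fell from 28.3 ± 1.73 to 22.1 ± 0.535 CPM (-0.36, SE 0.05, edgeR adjusted p = 3.1e-08), and *Lnpep*, an aminopeptidase of endosomes, from 432 to 363 CPM (-0.25, SE 0.02). Chaperone genes were among those that rose. *Pdia3*, the disulfide isomerase bound to tapasin, went from 618 to 716 CPM (0.21, SE 0.02, edgeR adjusted p = 1.75e-10), and the calcium-binding lectins *Calr* and *Canx* rose by 0.11 and 0.10 on the log2 scale (edgeR adjusted p = 3.72e-05 and 0.000208).

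The remainder of the proteasome likewise did not follow the inducible subunits. Of the 14 constitutive genes of the 20S core, 10 rose (71.4%) and 4 were not called, with a median log2 fold change of 0.12. Among all genes tested, 20.9% were called higher. Beside *Psmb5* and *Psmb7*, the largest rises were those of the structural subunits *Psma7*, from 54.3 to 64.9 CPM (log2 fold change 0.26), and *Psmb3* (0.22). Of the 21 genes of the 19S cap, which recognises and unfolds tagged proteins, 20 rose (95.2%) and 1 was not called (median 0.17). The largest rises were those of its assembly chaperones *Psmd10* (0.31) and *Psmd5* (0.28) and of its base subunits *Psmd2* and *Psmd1* (0.23 each).

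The exceptions were the genes of PA28, the interferon-inducible activator that caps the 20S core. *Psme1* was at 106, 94.4, 107 and 108 CPM with vehicle and at 74.9, 78.6, 74.3 and 72.5 CPM with TGF-β1, with no overlap. It fell by 0.47 on the log2 scale (SE 0.04, edgeR adjusted p = 5.03e-13). Its partner *Psme2* fell from 74.8 to 60.8 CPM (-0.30, SE 0.03, edgeR adjusted p = 2.37e-10), although 28.3% of its 50-base words also occur in the copy *Psme2b*. Of the 10 activator and assembly genes, 3 fell in all, 1 rose and 6 were not called, with a median of 0.00, and the share called was close to the 41.3% of all genes tested. *Psme4*, the PA200 activator, rose by 0.10, and the assembly chaperone *Psmg4* fell by 0.24 with an edgeR adjusted p of 0.0310 that was lost under several alternatives.

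**Figure D3:**
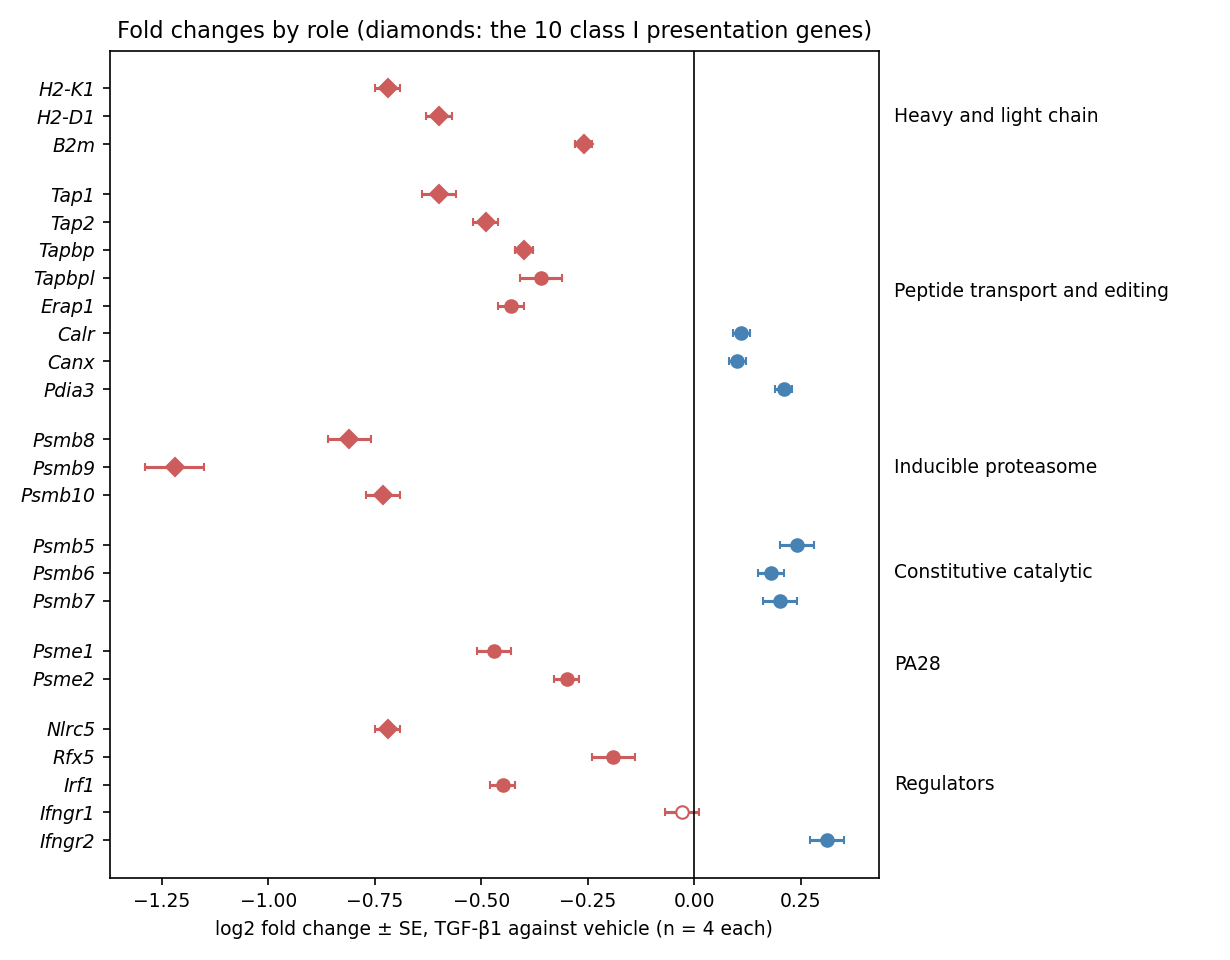
Log2 fold change ± SE (TGF-β1 against vehicle, n = 4 each) of the class I presentation genes (diamonds) and partner genes (circles), grouped by role, with filled symbols for an adjusted p under 0.05. All 10 diamonds lie between -1.22 and -0.26, whereas the constitutive catalytic subunits lie between 0.18 and 0.24 and *Calr*, *Canx* and *Pdia3* between 0.10 and 0.21.

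The factors through which NLRC5 and other activators reach class I promoters did not move in one direction. Of the 14 on the list (RFX, NF-Y, CREB and NF-kappaB genes), 3 rose (21.4%), 4 fell (28.6%) and 7 were not called, close to the 20.9% and 20.3% of all genes tested, and the median was -0.00. *Rfx5*, a DNA-binding subunit of the complex to which NLRC5 docks, went from 30.0 to 26.3 CPM (log2 fold change -0.19, SE 0.05, edgeR adjusted p = 0.000964). *Nfyc*, a subunit of the CCAAT-binding factor, fell by 0.23, the NF-kappaB inhibitor gene *Nfkbia* by 0.20 and *Relb* by 0.19 on the log2 scale. *Nlrc5* itself, at -0.72, lay outside the range of these 14 genes (-0.23 to 0.16).

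Genes of the interferon pathway, which is known to induce much of the core set, were mostly lower. Of the 16 signalling genes tested, 10 fell (62.5%), 3 rose (18.8%) and 3 were not called (median log2 fold change -0.25). Among all genes tested, 20.3% were called lower and 20.9% higher. *Irf1*, an activator of class I and proteasome genes, was at 126, 114, 128 and 125 CPM with vehicle and at 91.4, 95.0, 89.6 and 85.3 CPM with TGF-β1. It fell by 0.45 (SE 0.03, edgeR adjusted p = 6.15e-14), without overlap.

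*Irf7*, the amplifier of type I interferon production, fell from 223 to 114 CPM (log2 fold change -0.97, SE 0.06, edgeR adjusted p = 2.28e-06), and *Stat2* from 681 to 451 CPM (-0.59, SE 0.05, edgeR adjusted p = 3.85e-05). Receptor genes moved in both directions. *Ifnar1*, a receptor gene for type I interferon, fell from 73.3 to 63.8 CPM (-0.20, edgeR adjusted p = 6.26e-07), and its partner *Ifnar2* was not called (26.9 and 25.6 CPM). Of the receptor genes for interferon-γ, *Ifngr1* was at 49.2 and 48.0 CPM (-0.03, SE 0.04, edgeR adjusted p = 0.484) and *Ifngr2* rose from 44.5 to 55.0 CPM (0.31, SE 0.04, edgeR adjusted p = 8.29e-10). *Socs3*, a feedback inhibitor of JAK signalling, rose from 21.6 to 38.8 CPM (0.85, SE 0.05).

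All 43 genes on a list of interferon-induced genes were called lower, beside 20.3% of all genes tested. The groups did not overlap in any of them, a separation in this direction seen in 18.8% of the genes tested. The median log2 fold change of the list was -0.90 (range -2.05 to -0.27). This list was written with results of these data known and is no independent evidence of its direction. The chemokine genes *Cxcl9* and *Cxcl10* fell by 2.05 (SE 0.25) and 1.83 (SE 0.18) and the antiviral genes *Mx1* and *Cmpk2* by 1.73 (SE 0.16) and 1.65 (SE 0.15) on the log2 scale. Among the class I presentation genes *Psmb9* alone, at -1.22, lay below the median of that list.

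Interferon RNA itself was scarce. Of the 8 interferon genes on the list, 3 were tested, of which 2 were called lower (66.7%) and *Ifne* was not called. Among all genes tested, 20.3% were called lower. *Ifne* was at 0.259 CPM with vehicle and 0.254 CPM with TGF-β1 (log2 fold change -0.02, SE 0.40, edgeR adjusted p = 0.968). *Ifnk* and *Ifna2* did not pass the filter on low counts. *Ifnb1* had 34, 23, 54 and 59 counts in the vehicle cultures and 15, 12, 7 and 10 in the TGF-β1 cultures, a log2 fold change of -1.93 (SE 0.32, edgeR adjusted p = 2.83e-06). *Ifna4*, which belongs to a family of near-identical genes and is therefore uncertain, had 18, 13, 13 and 12 counts against 3, 4, 0 and 2 (edgeR adjusted p = 0.000135). Both were higher in every vehicle culture than in any TGF-β1 culture. *Ifng*, *Ifnl2* and *Ifnl3* had 0 counts in all 8 cultures, where 3 counts correspond to at most 0.0658 CPM.

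**Figure D4:**
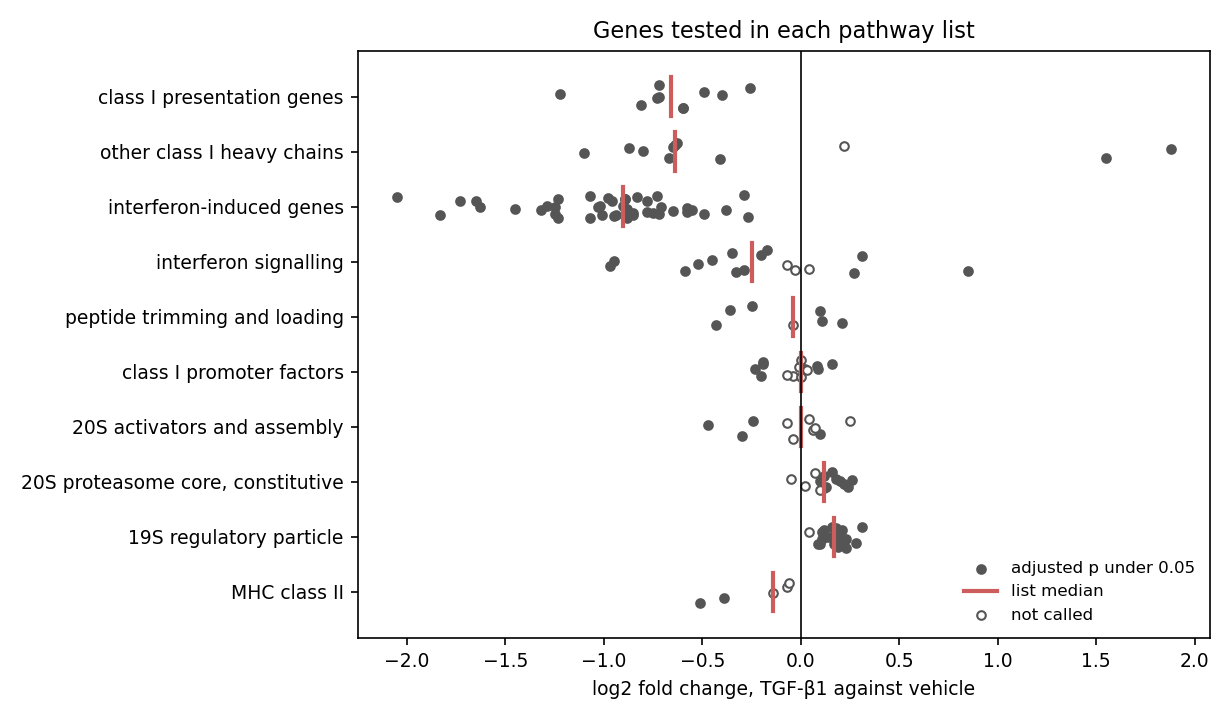
Log2 fold change (TGF-β1 against vehicle) of each gene tested in 10 lists, with filled points for an adjusted p under 0.05, open points for genes not called, and red bars for list medians. The medians of the class I presentation genes (-0.66), the other heavy chains (-0.64) and the interferon-induced genes (-0.90) lie to the left of 0, and those of the 20S core (0.12) and 19S genes (0.17) to the right.

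Heavy chain genes other than *H2-K1* and *H2-D1* encode mostly non-classical class I molecules. Of 18 on the list, 11 passed the filter on low counts. Of these, 8 fell (72.7%), 2 rose (18.2%) and 1 (*H2-M5*) was not called, and the median log2 fold change was -0.64. Among all genes tested, 20.3% were called lower and 20.9% higher. The most abundant were *H2-T23*, which encodes Qa-1, at 296, 299, 287 and 297 CPM with vehicle and 177, 177, 169 and 155 CPM with TGF-β1, and *H2-T22*, at 292, 285, 295 and 301 against 185, 195, 188 and 182 CPM. Neither overlapped between the groups, and they fell by 0.80 (SE 0.03) and 0.65 (SE 0.02) on the log2 scale with edgeR adjusted p of 7.71e-19 and 3.52e-25. *H2-Q6* fell by 1.10 (SE 0.09), *H2-Q7* by 0.87 (SE 0.08) and *H2-Q4* by 0.67 (SE 0.04). Reads of these genes can be shared, since 32.0% of the 50-base words of *H2-Q6*, 26.4% of *H2-Q7*, 21.8% of *H2-Q4*, 34.5% of *H2-T22* and 13.6% of *H2-T23* occur in other genes.

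*H2-M1* and *H2-M9*, neighbours in the MHC known for expression in the vomeronasal organ, went the opposite way. *H2-M1* (ENSMUSG00000037334, chr17:36670008-36672219, minus strand) was at 3.45, 3.29, 3.68 and 3.47 CPM with vehicle and at 10.3, 15.4, 11.5 and 14.0 CPM with TGF-β1. *H2-M9* (ENSMUSG00000067201, chr17:36639285-36642666, minus strand) was at 4.43, 4.83, 5.14 and 5.03 against 12.4, 16.0, 13.3 and 15.2 CPM. In both, every TGF-β1 culture was above every vehicle culture. The log2 fold changes were 1.88 (SE 0.10) and 1.55 (SE 0.08), with edgeR adjusted p of 1.87e-15 and 3.16e-20, and at most 1.3% of their 50-base words occur in other genes.

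**Figure D5:**
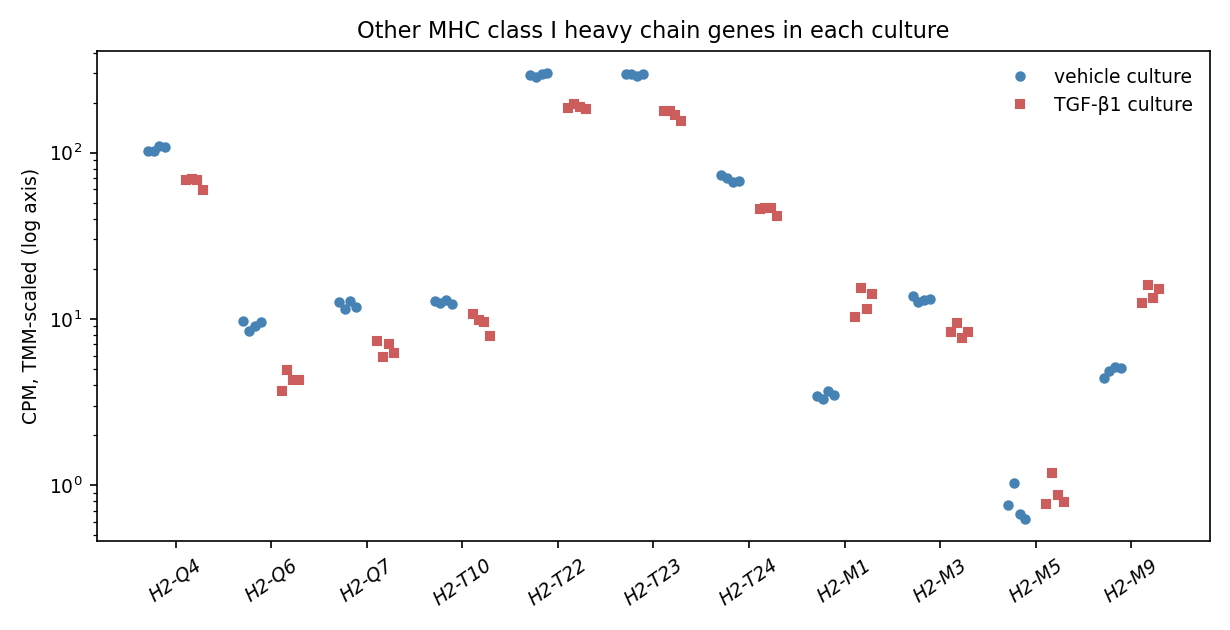
Level of the 11 other class I heavy chain genes tested in each culture (CPM, TMM-scaled, log axis), with circles for vehicle and squares for TGF-β1 (4 cultures each). The squares lie below the circles in 8 genes, overlap in *H2-M5*, and lie above in *H2-M1* and *H2-M9*.

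Class I-like proteins encoded elsewhere and class II genes were measured beside the set. *Hfe*, the *B2m*-binding regulator of iron uptake, fell from 12.3 to 7.04 CPM (log2 fold change -0.80, SE 0.08, edgeR adjusted p = 7.18e-12) and *Fcgrt*, the heavy chain of the neonatal Fc receptor, from 94.3 to 75.9 CPM (-0.31, SE 0.03, edgeR adjusted p = 4.08e-12). *Mr1*, which presents vitamin metabolites, was at 68.0 and 72.0 CPM (0.08, SE 0.03), with an edgeR adjusted p of 0.0314 that was lost in 6 alternatives. Of 11 class II genes, 5 were tested, of which 2 fell (40.0%) and 3 were not called. Among all genes tested, 20.3% were called lower and 41.3% in either direction. The transactivator *Ciita* fell from 7.81 to 5.48 CPM (-0.51, SE 0.09, edgeR adjusted p = 9.23e-06). *H2-DMa* fell from 7.94 to 6.07 CPM (-0.39, SE 0.08, edgeR adjusted p = 0.000208).

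The genes with profiles most like those of 4 of the class I presentation genes were sought over the 8 cultures among 16484 genes with a mean of at least 1 CPM, as the root mean square difference of centred log2 CPM. Nearest to *H2-K1* were *Serpinb8* (0.0211), *Baiap2* (0.0246) and *Ly6e* (0.0292), and nearest to *Nlrc5* were *Zic2* (0.0199), *Baiap2* (0.0218) and *Parp11* (0.0229). *Tap1* was closest to *Parp10* (0.0279), *Tent5b* (0.0347) and *Ube2l6* (0.0410), and *Psmb8* to *Gbp3* (0.0432), *Trim30d* (0.0488) and *H2-T23* (0.0493). *H2-K1* and *Nlrc5* were each other's nearest among the 10, at 0.0395. The log2 fold changes of these 11 genes lay between -0.85 and -0.59. With little spread within the groups, a small difference mainly reflects a similar fold change.

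Markers were examined because other cells also carry class I RNA. Of 11 pericyte markers, 6 had a mean of at least 1 CPM, and these moved in both directions. *Pdgfrb* was at 202 CPM with vehicle and 291 CPM with TGF-β1, *Cspg4* at 82.9 and 169 CPM and *Mcam* at 5.25 and 10.1 CPM, all called higher, *Rgs5* fell from 8.62 to 2.13 CPM and *Anpep* from 40.5 to 30.1 CPM, and *Notch3* was not called (88.5 and 85.9 CPM). *Kcnj8* had at most 3 counts in every culture and *Abcc9*, *Vtn*, *Higd1b* and *Des* were under 1 CPM. The 11 macrophage and microglia markers summed to 109 to 114 CPM with vehicle and 109 to 111 CPM with TGF-β1, mostly from *Tmem119* (102 and 98.5 CPM) and *Cd68* (5.10 and 5.92 CPM), and *Csf1r* rose by 0.73 on the log2 scale to 2.50 CPM. The pan-leukocyte marker *Ptprc* was at 0.727 and 0.758 CPM and *C1qa* had at most 3 counts in every culture. The 5 lymphocyte and dendritic cell markers summed to at most 1.54 CPM with vehicle and 1.72 CPM with TGF-β1. Endothelial markers (8) summed to 472 to 485 and 475 to 501 CPM, mostly *Cdh5* (375 and 367 CPM) with *Pecam1* at 1.11 CPM, and of the 6 tested *Flt1* rose from 81.7 to 99.2 CPM, *Vwf* rose from 1.58 to 3.81 CPM and *Tek* fell by 0.45 on the log2 scale. The 11 pericyte markers summed to 419 to 439 and 578 to 601 CPM. The 5 fibroblast markers summed to 3717 to 3877 CPM with vehicle and 5327 to 5569 CPM with TGF-β1, a rise carried by *Col1a1* and *Col1a2*, while *Dcn* fell from 52.1 to 46.7 CPM, *Pdgfra* was not called (62.5 and 63.0 CPM) and *Lum* was under 0.1 CPM. The 6 astrocyte markers summed to 50.8 to 58.0 and 39.3 to 44.3 CPM, where *Slc1a2* fell from 38.5 to 16.3 CPM and *Slc1a3* and *Aldh1l1* rose by 0.64 and 0.77 on the log2 scale, and *Gjb6*, at 0.719 CPM with vehicle, was at 0.0434 CPM with TGF-β1. The 4 oligodendrocyte markers summed to 3.86 to 5.07 and 5.15 to 5.70 CPM, and *Mbp* was called higher. Their part in the fall of the class I presentation genes was not tested.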

How the data were processed

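RNA of 8 primary cultures was sequenced after a stranded total RNA preparation. Alignment by the authors used STAR 2.7.5c in 2-pass mode on mm10, SAMtools 1.15 took out duplicates, and featureCounts 2.0.3 made the gene counts. The deposited values are these raw counts per gene, not normalized. The annotation release, the strand setting and the treatment of reads shared between genes are not given in the sources used here. Of 54532 identifiers, 54409 had a symbol and a position in GENCODE M21. Totals were 45255235 to 47651397 counts, so that 3 counts equal 0.0631 to 0.0658 CPM. Of counts from 1 to 20, 68.5% to 70.2% were even, so counts may not be independent molecules.

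Counts were tested with edgeR 4.0.16 in R 4.3.3 (filterByExpr, TMM, robust quasi-likelihood test, Benjamini-Hochberg over 22544 genes, threshold 0.05), unpaired and without covariates, since the labels tie no vehicle culture to a TGF-β1 culture although the study's methods describe isolates split between both, and the code was tested on simulated data. The SE is the size of the log2 fold change divided by the square root of F. Ratios of counts per exon kb were compared over all 70 assignments of the cultures (exact permutation, two-sided). Shared sequence was measured as 50-base words of GENCODE transcripts. The p-values set the difference between the groups against the spread among these cultures. Named are the 10 genes, fixed partner and regulator genes, up to 4 genes of each other list with the largest change at an adjusted p under 0.05 and a mean of at least 1 CPM, and the 3 nearest profiles of 4 genes. *H2-T22*, *H2-T23*, *H2-Q4*, *H2-M5*, *Uggt1*, *Ifnar1*, *Ifnar2*, *Ifnb1*, *Ifna4*, *Ifne*, *Ifnk*, *Ifna2*, the genes with 0 counts and the single marker genes were named beyond this rule, after their values were seen. A gene that falls under the rule is not reported here. The members and lists were chosen with earlier results of these data known. Alternatives were DESeq2 1.42.0, other scalings and filters, counts per fragment (dividing by 2, rounding up) and each culture left out.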

Additional observations from a re-analysis of the deposited data

Results flagged for a closer look

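Among 122 groups of 4 values (genes named in the text and ratios), 8 held a culture far from the other 3 (Dixon's criterion on the gap to the nearest value), and chance gives about 1 in 20 groups. TGF-β1 replicate 8 had 41.9 CPM of *Tap2*, where the nearest culture had 45.1. In the same culture the ratio of *Psmb8* to *Psmb5* was 0.143 against 0.171, the ratio of *H2-D1* to *B2m* was 0.178 against 0.183, and *Psmd5* was at 74.5 CPM against 70.2. Vehicle replicate 2 was apart in *Psme1*, at 94.4 CPM against 106, and in *Erap1*, at 105 CPM against 110. Vehicle replicate 1 was apart in *Stat2*, at 721 CPM against 673, and vehicle replicate 3 in the ratio of *H2-K1* to *H2-D1*, at 0.537 against 0.550.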

How the results depend on the processing

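No paired analysis was run, because the labels do not give which cultures came from the same isolate. They number the vehicle cultures 1 to 4 and the TGF-β1 cultures 5 to 8, so that the groups share no replicate number. All 10 class I presentation genes were lower, with an adjusted p under 0.05, under DESeq2, each other scaling and filter, counts per fragment and with each culture left out. *B2m* ranged from -0.28 to -0.23 and *Psmb9* from -1.26 to -1.17 on the log2 scale with a culture left out, and the median of all genes tested from -0.02 to 0.00 over all settings. The higher call among class I-like genes, that of *Mr1*, went from 1 to 0 with library totals only, with at least 1 count in any culture, and without vehicle replicate 2 or 4 or TGF-β1 replicate 5 or 7 (range 0 to 1). Higher calls among the 20S activator and assembly genes went from 1 to 2 with DESeq2 and without vehicle replicate 1 or 3 (range 1 to 2), the cause of which was not tested. Lower calls among interferon ligands went from 2 to 0 when each culture had to hold at least 10 counts, where none of the list was tested, and to 1 with counts per fragment, where 1 was. The *Tap1* to *Tap2* log2 difference ranged from -0.14 to -0.10 with a culture left out, and its exact permutation p from 0.0286 without vehicle replicate 2 to 0.114. *Psmg4* lost its call in 5 settings, DESeq2 among them (adjusted p = 0.0809). The other counts of calls, some of which moved, stayed within 1.5 times their main value. Lower calls among the peptide trimming and loading genes went from 3 to 4, with *Uggt1*, under library totals only.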
